A study of Mus musculus with 24 samples.

Results

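The segment described here is the stretch of mouse chromosome 17 that lies within 10 Mb of either end of the *Zfp57* gene. Its members were chosen by position and by abundance, as the genes of the table whose start lay from 27001163 to 47010635 on GRCm38 and whose mean raw count over all 12 embryos was at least 50. The genes whose names begin with H2-, those named *Zfp9* with 2 more digits and no letter after them, *Zfp57*, *Tap1*, *Tap2*, *Tapbp*, *Psmb8*, *Psmb9*, *Notch3* and *Notch4* were left out by name, so that *Zfp955a* and *Zfp955b* stayed in. Of the 598 genes with a start in this window, 354 were under the count minimum and a further 17 were left out by name, which left 227 members of the 34745 genes in the table. The mean count that selected the members was taken over both groups together and is not a result.

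*Zfp57* encodes a zinc-finger protein with a KRAB domain that binds methylated DNA at imprinting control regions and keeps their methylation through early development. The gene sits next to the major histocompatibility complex of the mouse, and the segment therefore holds class III immune genes, a cluster of *Trim* genes and many housekeeping genes for splicing, translation and protein folding. None of the member genes is used here as an imprinted gene.

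RNA was sequenced from 12 whole embryos at E13.5, with 1 library per embryo, from crosses of *Zfp57*-/- mothers on a 129 background with *Zfp57*+/- fathers on a DBA background. The 6 M-Z+ embryos lacked the maternal product of *Zfp57* and carried a wild-type paternal allele, whereas the 6 M-Z- embryos lacked both the maternal and the zygotic product. The mutant allele of the fathers came from mice of the 129 background that had been backcrossed 12 times to DBA/2J mice, so M-Z- embryos inherited, with the mutant paternal allele, whatever DNA of 129 origin was still linked to it. Within this segment the genotype at *Zfp57* and the strain origin of the linked paternal DNA cannot be told apart. Sex, litter and batch were not given in the labels. The libraries held from 12005145 to 19216288 counts, and the segment took between 1.84% and 2.18% of the counts of each library. All group values below are CPM (counts scaled to the TMM-normalized library size), and log2 fold changes are those of M-Z- against M-Z+ embryos, written ± their standard error.

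*Zfp57* itself, from 37001163 to 37010635, ranged from 19.1 to 40.8 CPM with a median of 23.7 in M-Z+ embryos, and from 17.8 to 27.8 CPM with a median of 26.5 in M-Z- embryos. M-Z+ replicates 4 and 6 lay above every M-Z- embryo, and the other 4 M-Z+ embryos lay within the range of the M-Z- embryos. Its log2 fold change of −0.15 ± 0.18 was not called (edgeR, adjusted p = 0.828; exact two-sided permutation p = 0.532). Since the deleted part of the allele is not named in the sources used here, the count over the whole gene does not check the genotype labels.

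No member of the segment was called between M-Z- and M-Z+ embryos. The call rule was an adjusted p below 0.05 from edgeR over all genes with a log2 fold change beyond 0.5 either way, and 0 of the 226 tested members met it, beside 13 of 16026 genes (0.0811%; 0.0437% higher and 0.0374% lower in M-Z- embryos). The same 0 members and the same shares of all genes remained without the fold limit. DESeq2 likewise called 0 of 227 members, beside 40 of 24149 genes (0.166%; 0.0911% higher and 0.0745% lower). Without the fold limit it gave 0 members beside 0.182% of genes (0.104% higher and 0.0787% lower). With the fold limit but an unadjusted p below 0.05, 4 members were counted by edgeR and 4 by DESeq2, against 1.54% of all genes (0.792% higher and 0.749% lower) and 1.52% (0.791% higher and 0.733% lower). The 4 were the same genes with both tools: *Tnxb* and *Trim26*, higher in M-Z- embryos, and *Angptl4* and *Mrpl2*, lower. They make up 1.77% of the tested members, a share near that of all genes, and 2 were counted where M-Z+ replicate 1, M-Z+ replicate 5 or M-Z- replicate 6 was omitted.

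With no fold limit, 22 of the 226 members had an unadjusted p below 0.05 (9.73%), of which 7 were higher and 15 lower in M-Z- embryos. The shares over all tested genes were 6.7% in either direction, 3.44% higher and 3.26% lower. With the groups alone in the model, the 22 genes did not reach an adjusted p below 0.05 with edgeR or DESeq2. Those outside the 4 above were named after their values were seen, except *Trim10* and *Rhag*, which were named for their nearness to *Zfp57*. Their number was 42 without M-Z+ replicate 6, beside 16.2% of all genes. The groups did not overlap for 2 members, *Cul9* and *Klc4*, both lower, beside 0.574% of all tested genes (0.3% higher and 0.275% lower). With fewer embryos to separate, this count was 6 on omitting M-Z+ replicate 2 (2.64%, beside 0.775% of all genes), 5 on omitting M-Z- replicate 5 (2.2%, beside 0.79%), and 4 on omitting either M-Z+ replicate 6 (1.76%, beside 1.71%) or replicate 4 of M-Z- (1.76%, beside 0.842%). The log2 fold changes of the members lay between −0.61 and 0.70, with 77 above and 149 below 0.

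**Figure D1:**
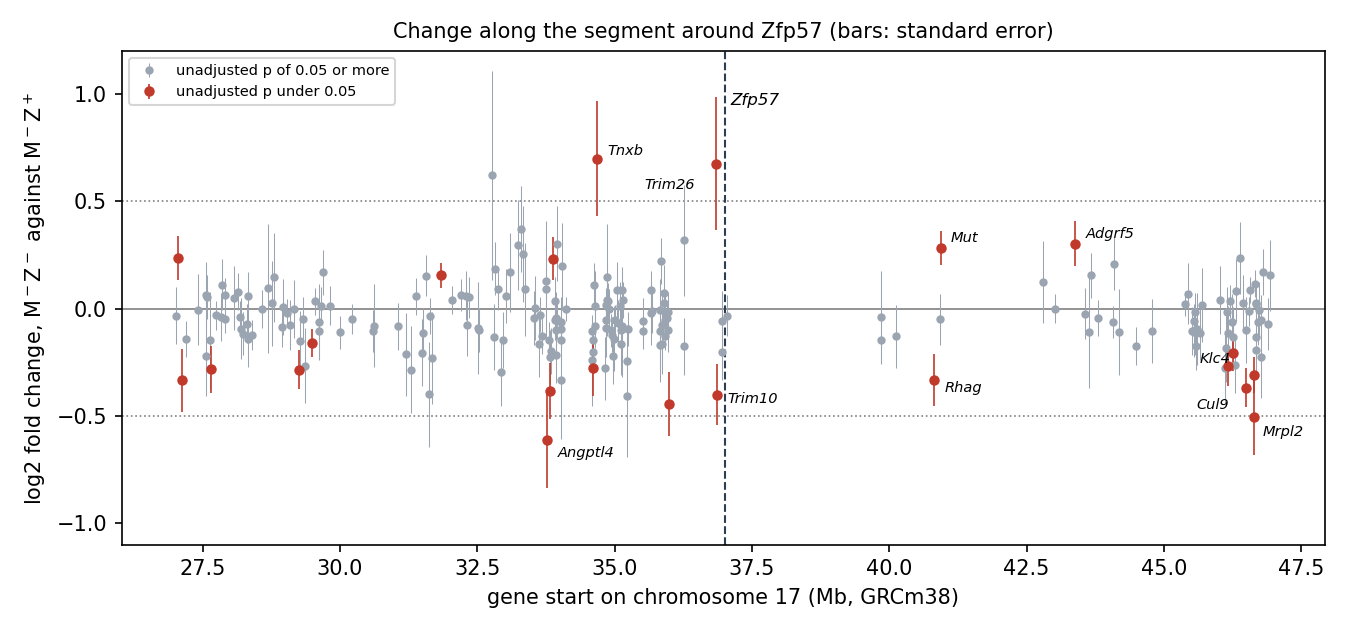
Log2 fold change in M-Z- against M-Z+ embryos (vertical axis) of the 226 tested members by gene start on chromosome 17 in Mb (horizontal axis), with standard errors as bars. The dashed line marks *Zfp57* and the dotted lines the fold limit of 0.5. The 22 genes with an unadjusted p below 0.05, in red, are spread over the segment, and 3 of them lie among the 8 members within 1 Mb of *Zfp57*.

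Across the whole segment the size of the change showed little relation to the distance from *Zfp57*, although the few members within 1 Mb had larger values. Over the 226 members the Spearman correlation of the absolute log2 fold change with the gap to *Zfp57* was −0.046, and it was −0.086 over the 164 members at lower coordinates and 0.042 over the 62 at higher coordinates. These are descriptions across genes, which share the same 12 libraries and are not independent. The median absolute log2 fold change was 0.09 in the 40 members within 2 Mb, 0.13 in the 59 members at 2 to 4 Mb, 0.11 in the 35 at 4 to 7 Mb and 0.10 in the 92 at 7 to 10 Mb. It was 0.10 both in the 200 other genes of chromosome 17 with enough counts at 10 to 20 Mb and in the 183 beyond 20 Mb.

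The sides of *Zfp57* are unequal in gene number. Only 1 member, *Gabbr1*, started within 2 Mb at higher coordinates, against 39 members at lower coordinates. Genes with an unadjusted p below 0.05 made up 3 of the 40 members within 2 Mb (7.5%), 7 of 59 at 2 to 4 Mb (11.9%), 2 of 35 at 4 to 7 Mb (5.71%) and 10 of 92 at 7 to 10 Mb (10.9%). On the rest of the chromosome they made up 6% of the genes at 10 to 20 Mb and 9.29% of those beyond 20 Mb. No class held a called gene.

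All 3 genes of the nearest class lay within 1 Mb of *Zfp57*. When that class was divided at 1 Mb, after the values were seen, the nearer part held 8 members: *Gabbr1*, *Znrd1*, *Ppp1r11*, *Trim10*, *Trim26*, *Trim39*, *Rpp21*, which encodes a subunit of ribonuclease P, and *A930015D03Rik*. Of these 8, 3 had an unadjusted p below 0.05 (37.5%), beside 0 of the 32 members at 1 to 2 Mb and 6.7% of all genes. The genes left out by name are not in these counts. Among those with enough counts, *H2-D1* and *H2-Q4* lay at 1 to 2 Mb and had an unadjusted edgeR p below 0.05, with log2 fold changes of 0.75 and 0.44. The others within 2 Mb had an unadjusted p of 0.05 or more. The median absolute log2 fold change was 0.26 in the 8 and 0.08 in the 32, while the median standard deviation of log2 CPM within groups was 0.25 and 0.19. The directions were mixed, with 2 of the 8 higher and 6 lower. The median of the 8 rested in part on single embryos, being 0.15 without M-Z- replicate 6 and 0.17 without M-Z+ replicate 4. It was 0.12 with the length slope of the libraries (described below) as a covariate and 0.16 with 2 surrogate variables, where the 32 members had 0.07 and 0.08 and held 3 genes each time with an unadjusted p below 0.05. The count of such genes among the 8 was 3 with DESeq2 and with the length slope, but 2 with the surrogate variables and with a block for the replicate number. It was 2 for most single embryos left out, and 4 without M-Z+ replicate 6.

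The median log2 fold change was −0.06 over the members and −0.01 over all tested genes. It was −0.06 within 2 Mb, −0.05 in each of the classes from 2 to 10 Mb, −0.05 for the genes of chromosome 17 at 10 to 20 Mb and 0.03 for those beyond 20 Mb. The median log2 deviation of the members from their own mean over the embryos had a standard deviation of 0.07 within groups, and ranged from −0.11 in M-Z+ replicate 6 to 0.12 in M-Z+ replicate 4.

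The shift moved with gene length. When the members were divided into 3 classes of near equal size by length, the median log2 fold change was −0.11 in the shortest class, of up to 3521 bases, −0.05 in the middle class and 0.00 in the longest class, of over 6502 bases. Among all tested genes with enough counts and the same lengths, the medians were −0.08, −0.01 and 0.06. Of the 15 lower members with an unadjusted p below 0.05, 11 were in the shortest class, which held 194 of the 429 lower genes among all tested genes with enough counts.

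The libraries themselves differed in how steeply log2 CPM rose with log2 gene length. That slope was 0.668 in M-Z+ replicate 6, 0.66 in M-Z- replicate 5 and 0.67 in M-Z- replicate 6, and it lay between 0.437 and 0.567 in the other 9 libraries. With the slope as a covariate the median log2 fold change of the members was −0.005, and with 2 surrogate variables it was 0.005. Without the 3 libraries of the steepest slope, an alternative chosen after seeing the data, it was −0.067, against −0.056 with all libraries. The part of the slope in the lower values was not tested further.

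The stretch of the segment farthest from *Zfp57* at higher coordinates, from 46016993 to 47010532, held 32 tested members and 5 of the 22 genes, beside an unadjusted p below 0.05 in 6.7% of all genes (3.26% lower). It was singled out after its values were seen. All 5 were lower in M-Z- embryos. They were *Polh*, which encodes the translesion DNA polymerase eta, *Tjap1*, which encodes a protein of tight junctions, *Cul9*, *Klc4* and *Mrpl2*. The median log2 fold change of the 32 was −0.06.

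*Cul9*, a cullin that forms part of a ubiquitin ligase complex and binds p53 in the cytoplasm, lies at 46500572, 9.49 Mb from *Zfp57*. It ranged from 24.1 to 32.9 CPM with a median of 28.4 in M-Z+ embryos and from 19.4 to 24.0 CPM with a median of 22.4 in M-Z- embryos. Every M-Z- embryo was below every M-Z+ embryo, although the nearest values, in M-Z- replicate 6 and M-Z+ replicate 2, differed by little (23.96 and 24.05 CPM), and they changed order under the size factors of DESeq2 or RLE. The log2 fold change was −0.37 ± 0.09 (edgeR, adjusted p = 0.449, DESeq2 adjusted p = 0.0979), the lowest edgeR p of the 226 members. The exact permutation p of 0.0022 is the smallest that 6 against 6 embryos can give and was 0.377 after adjustment over all 16026 genes.

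*Klc4* encodes a kinesin light chain, which links cargo to the motor, and starts at 46630631. Its values ran from 30.9 to 41.2 CPM with a median of 34.1 in M-Z+ embryos, and from 27.0 to 30.3 CPM with a median of 27.8 in M-Z- embryos. All M-Z- embryos lay within a narrow band just under the lowest M-Z+ embryo. This gave a log2 fold change of −0.31 ± 0.09 (edgeR, adjusted p = 0.557), which was −0.20 with 2 surrogate variables.

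*Mrpl2*, a protein of the large subunit of the mitochondrial ribosome, begins at 46646229, directly next to *Klc4* and on the opposite strand. It had 17.8 to 36.4 CPM (median 28.8) in M-Z+ and 15.7 to 23.5 CPM (median 20.8) in M-Z- embryos. The groups overlapped, since M-Z+ replicates 3 and 6 lay among the M-Z- embryos. Its log2 fold change of −0.51 ± 0.18 (edgeR, adjusted p = 0.705) fell inside the fold limit with the length slope as a covariate, where it was −0.34. *Cul9*, *Klc4* and *Mrpl2* are among 17 members that share bases with *Gm26904*, a long annotated transcript from 46471501 to 46825221 that had no counts in any of the 12 libraries.

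The promoters of *Klc4* and *Mrpl2* overlap each other, since their starts face away from one another. They are shown with those of *Cul9*, *Tjap1* and *Polh*, as the members of the stretch with an unadjusted p below 0.05. The 8 members directly beside these genes had unadjusted p of 0.05 or more and values on either side of 0: *Gtpbp2* −0.11, *Xpo5* 0.03, *Yipf3* −0.13, *Dlk2* −0.26, *Dnph1* −0.10, *Srf* −0.01, *Ptk7* 0.09 and *Cul7* 0.12. The letters TGCCGC, the core of the motif bound by ZFP57, were searched on both strands of the RefSeq promoter windows of GRCm38.p6, each of 300 bases (250 before and 50 after the start of a transcript), and matches are in capitals, GCGGCA being a match on the other strand. *Klc4* held 2 matches, the same 2 that the windows of *Mrpl2* held, *Tjap1* held 1, and *Cul9* and *Polh* held 0. The windows are chr17:46646031-46646330 (minus strand) for *Klc4*, chr17:46645979-46646278 (plus strand) for *Mrpl2*, chr17:46282977-46283276 (minus strand) for *Tjap1*, chr17:46546339-46546638 (minus strand) for *Cul9* and chr17:46202592-46202891 (minus strand) for *Polh*, written 5′ to 3′.
Klc4: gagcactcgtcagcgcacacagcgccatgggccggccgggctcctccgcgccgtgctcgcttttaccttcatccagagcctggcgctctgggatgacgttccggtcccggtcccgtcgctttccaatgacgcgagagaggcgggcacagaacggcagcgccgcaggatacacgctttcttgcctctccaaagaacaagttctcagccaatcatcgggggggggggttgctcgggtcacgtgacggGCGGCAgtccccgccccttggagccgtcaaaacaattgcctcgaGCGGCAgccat
Mrpl2: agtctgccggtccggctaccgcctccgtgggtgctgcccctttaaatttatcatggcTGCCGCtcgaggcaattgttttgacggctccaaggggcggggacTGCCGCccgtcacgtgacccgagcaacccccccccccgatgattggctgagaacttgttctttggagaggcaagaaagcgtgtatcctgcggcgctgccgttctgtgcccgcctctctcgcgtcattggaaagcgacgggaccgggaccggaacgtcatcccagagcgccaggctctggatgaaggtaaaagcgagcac
Tjap1: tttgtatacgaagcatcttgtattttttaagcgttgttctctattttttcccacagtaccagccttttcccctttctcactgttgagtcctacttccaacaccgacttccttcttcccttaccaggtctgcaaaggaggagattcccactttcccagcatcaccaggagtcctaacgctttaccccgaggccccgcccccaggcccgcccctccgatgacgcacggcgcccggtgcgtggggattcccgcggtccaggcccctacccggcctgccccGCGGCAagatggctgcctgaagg
Cul9: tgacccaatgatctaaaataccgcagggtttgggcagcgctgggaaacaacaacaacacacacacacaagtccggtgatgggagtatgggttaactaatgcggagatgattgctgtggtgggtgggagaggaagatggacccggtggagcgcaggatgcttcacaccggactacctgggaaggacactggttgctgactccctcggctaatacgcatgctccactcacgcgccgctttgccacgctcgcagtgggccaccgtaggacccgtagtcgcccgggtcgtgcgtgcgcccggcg
Polh: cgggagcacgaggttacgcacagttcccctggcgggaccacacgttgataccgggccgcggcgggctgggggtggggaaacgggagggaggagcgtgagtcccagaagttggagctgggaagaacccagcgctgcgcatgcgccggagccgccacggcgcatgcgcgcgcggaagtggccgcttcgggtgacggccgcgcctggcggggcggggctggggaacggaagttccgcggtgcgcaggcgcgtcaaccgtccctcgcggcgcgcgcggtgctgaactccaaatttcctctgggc

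Of the 227 members, 186 had at least 1 promoter in the RefSeq table, and 42 of these (22.6%) held TGCCGC on either strand, against 13.1% of the 27025 genes of the table with a promoter. By promoter, the share was 51 of 265 (19.2%) against 11.6% of 32851. The member promoters were also richer in G and C, with a median of 60% against 52.7%, and part of the difference in share that goes with base composition was not tested. Among the members with an unadjusted p below 0.05, 3 of 18 with a promoter held the letters (16.7%). A match describes the sequence only and is not a binding site.

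Close to *Zfp57*, the 5 nearest members at lower coordinates were *Znrd1*, *Ppp1r11*, *Trim10*, *Trim26* and *Trim39*, at gaps of 0.043 to 0.729 Mb. *Znrd1*, a subunit of RNA polymerase I, had a log2 fold change of −0.06 ± 0.14, *Ppp1r11*, an inhibitor of protein phosphatase 1, had −0.20 ± 0.13, and *Trim39*, a RING-type ubiquitin ligase, had 0.32 ± 0.26, which was 0.06 without M-Z- replicate 6. The 5 nearest at higher coordinates were *Gabbr1*, *Gm26917*, *Gm42418*, *Tgif2-ps2* and *Rhag*, at gaps of 0.035 to 3.8 Mb. *Gabbr1*, a subunit of the GABA-B receptor, had −0.03 ± 0.10. *Gm26917*, *Gm42418* and the pseudogene *Tgif2-ps2* had −0.04 ± 0.22, −0.15 ± 0.11 and −0.13 ± 0.15. RefSeq lists *Gm42418* as a pseudogene of the 18S ribosomal RNA (*Rn18s-rs5*), *Gm26917* lies directly before it, and a pseudogene can share reads with its parent gene, so these 3 values are uncertain.

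*Trim26*, a RING-type ubiquitin ligase of antiviral signalling, starts at 36837134, 0.142 Mb from *Zfp57*. In M-Z+ embryos it had 19.8 to 62.0 CPM with a median of 23.7, and in M-Z- embryos 23.1 to 60.2 CPM with a median of 54.6. The 12 values stood at separate levels. M-Z+ replicate 2 and M-Z- replicates 1, 3, 4 and 6 had 54.1 to 62.0 CPM, while the other 7 embryos had 19.8 to 29.2 CPM. Both levels occurred in both groups, so the groups overlapped over most of their range. For *Trim26* the log2 fold change was 0.67 ± 0.31 (edgeR, adjusted p = 0.745, exact permutation p = 0.11). It was 1.02 without M-Z+ replicate 2 and 0.58 without M-Z+ replicate 1. The unadjusted edgeR p was below 0.05 in 3 of the 12 fits with 1 embryo left out. With the surrogate variables the log2 fold change was 0.49 and its unadjusted p was above 0.05, as it was with the length slope and with a block for the replicate number.

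*Trim10*, a gene of the same cluster at 36869574, is expressed in red cell precursors and needed for their terminal differentiation. It had 74.4 to 128 CPM (median 91.5) in M-Z+ and 55.0 to 86.8 CPM (median 71.2) in M-Z- embryos. M-Z+ replicate 3 was the highest of all and M-Z- replicate 6 the lowest, and the groups overlapped between 74.4 and 86.8 CPM. Between the groups the log2 fold change was −0.40 ± 0.14 (edgeR, adjusted p = 0.722).

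*Rhag*, at 40811126 on the other side of *Zfp57*, encodes the Rh-associated glycoprotein of the red cell membrane. Its values were 59.6 to 97.6 CPM (median 72.8) in M-Z+ and 48.8 to 70.0 CPM (median 59.8) in M-Z- embryos. The order of the embryos resembled that of *Trim10*, with M-Z+ replicate 3 at the top and M-Z- replicate 6 at the bottom, and the groups overlapped. The log2 fold change was −0.33 ± 0.12 (edgeR, adjusted p = 0.74). Once 2 surrogate variables were in the model, *Trim10* and *Rhag* were the only members at an adjusted p below 0.05 in edgeR (0.00269 and 0.00843), at log2 fold changes of −0.47 and −0.43, inside the fold limit. In that fit 44 of all 16026 genes had an adjusted p below 0.05 with no fold limit, against 13 with the groups alone in the model. In whole embryos, fewer cells of a type and less RNA per cell cannot be told apart.

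Markers of red cell precursors were present in every embryo. All 8 genes of the erythroid list were detected, with embryonic globin *Hbb-y* the most abundant at a mean of 21210.0 TPM (a scale that corrects for gene length). The summed TPM of the list ran from 21450.0 to 41570.0 with a median of 32850.0 in M-Z+ embryos and from 29150.0 to 44500.0 with a median of 36730.0 in M-Z- embryos, so that the sum was on average the higher in the group with the lower *Trim10* and *Rhag* (exact permutation p = 0.242, adjusted over 8 lists 0.408). The median log2 fold change of the 8 genes was −0.15, and 1 of 8 had an unadjusted p below 0.05. The part of red cell number or stage in the values of *Trim10* and *Rhag* was not tested.

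Other cell types were also compared by summed TPM. Fetal hepatocyte markers, led by *Alb*, had medians of 6133.0 TPM in M-Z+ and 5710.0 TPM in M-Z- embryos, neural markers, led by *Tubb3*, 1386.0 and 1236.0 TPM, and macrophage markers, led by *C1qa*, 106 and 119 TPM. Markers of cartilage (*Col2a1*) had 703 and 788 TPM and those of skeletal and heart muscle (*Actc1*) 1364.0 and 1426.0 TPM. All of these were present in every embryo, and no list differed at an adjusted p below 0.05 (exact permutation tests, adjusted over 8 lists, lowest 0.408). The neural list had the lowest unadjusted permutation p, 0.0519, with 2 of 6 genes at an unadjusted edgeR p below 0.05 and a median log2 fold change of −0.14. Of the 8 trophoblast markers 6 had no count in any library, and of the 5 decidua markers *Prl8a2* had none, while *Dcn*, which fetal connective tissue also expresses, led that list at 276 TPM.

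Enzymes and transporters of metabolism formed the largest list of members, with 32 tested genes of which 7 had a positive and 25 a negative log2 fold change (median −0.09), where all tested genes had 7733 positive and 8293 negative. The 226 tested members of the segment had 77 positive and 149 negative, and the directions in each list below are also to be read beside these. No gene of the list was called, and 3 had an unadjusted p below 0.05 (9.38%, beside 6.7% of all genes). *Mut*, the mitochondrial methylmalonyl-CoA mutase, ranged from 48.4 to 60.0 CPM with a median of 52.9 in M-Z+ and from 56.8 to 75.3 CPM with a median of 64.5 in M-Z- embryos. Most M-Z- embryos were above all M-Z+ embryos, and the groups overlapped at 1 M-Z- embryo. For *Mut* this was a log2 fold change of 0.28 ± 0.08 (edgeR, adjusted p = 0.589).

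*Angptl4*, a secreted inhibitor of lipoprotein lipase at 33773750, had 22.8 to 43.9 CPM (median 36.5) in M-Z+ and 14.9 to 34.5 CPM (median 22.5) in M-Z- embryos. M-Z+ replicates 1, 2 and 6 lay among the M-Z- embryos. It had a log2 fold change of −0.61 ± 0.22 (edgeR, adjusted p = 0.74), and it was −0.35 with the length slope as a covariate. *Uqcc2*, an assembly factor of respiratory complex III, had −0.33 ± 0.15, but −0.12 with the length slope and −0.16 with the surrogate variables, and its unadjusted p was above 0.05 in either fit. For *Uqcc2* it was −0.33 without the 3 libraries of the steepest length slope and −0.32 with a block for the replicate number. Its unadjusted edgeR p was below 0.05 in both of these. The most abundant genes of the list, *Ddah2*, which belongs to the dimethylarginine hydrolase family, and *Clic1*, an intracellular chloride channel protein, had mean levels of 350 and 249 TPM and log2 fold changes of −0.07 and 0.09.

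In the list for ribosome and translation, 11 of 14 genes had negative log2 fold changes (median −0.08; 8293 of 16026 over all tested genes), and 2 had an unadjusted p below 0.05 (14.3%, beside 6.7% of all genes). Besides *Mrpl2* this was *Rps28*, a protein of the small ribosomal subunit, at 47.7 to 85.7 CPM (median 62.4) in M-Z+ and 42.8 to 58.1 CPM (median 50.1) in M-Z- embryos. The groups overlapped, and the log2 fold change was −0.39 ± 0.13 (edgeR, adjusted p = 0.705). For *Rps28* it was −0.25 with the length slope and −0.21 with the surrogate variables, and its unadjusted p was above 0.05 in both. Without the 3 libraries of the steepest length slope it was −0.48, and with a block for the replicate number −0.36. The unadjusted edgeR p was below 0.05 in both of these. The most abundant genes, *Rpl10a* at 263 TPM and *Rpl7l1* at 215 TPM, had log2 fold changes of −0.14 and −0.05.

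For RNA processing and export, 14 of 21 genes were lower, beside 149 of the 226 members and 8293 of 16026 over all tested genes. The median of the list was −0.03, and its median absolute log2 fold change, 0.04, was the smallest of the 9 lists. *Ppil1*, a peptidyl-prolyl isomerase of the spliceosome, had 58.9 to 79.3 CPM (median 66.9) in M-Z+ and 50.5 to 66.0 CPM (median 52.3) in M-Z- embryos. It was the only gene of this list with an unadjusted p below 0.05 (4.76% of the list, beside 6.7% of all genes). Several M-Z- embryos lay below all M-Z+ embryos, but the groups overlapped. It had a log2 fold change of −0.29 ± 0.09 (edgeR, adjusted p = 0.685). *Prrc2a* at 282 TPM and *Hnrnpm*, a splicing regulator at 230 TPM, had 0.04 and −0.03.

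Among chromatin and transcription regulators, 12 of 31 genes were higher and 19 lower (median −0.04), where all tested genes had 7733 higher and 8293 lower. *Sik1*, a salt-inducible kinase that acts on CREB coactivators, was the 1 gene with an unadjusted p below 0.05 (3.23% of the list, beside 6.7% of all genes). It varied little between embryos, with 42.9 to 47.8 CPM (median 45.0) in M-Z+ and 46.6 to 52.9 CPM (median 50.2) in M-Z- embryos. The ranges overlapped only between 46.6 and 47.8 CPM. It had a log2 fold change of 0.15 ± 0.06 (edgeR, adjusted p = 0.744). *Cdc5l*, a spliceosome component with a DNA-binding domain, and *Pbx2*, a partner of HOX proteins, led the list at 150 and 103 TPM and had 0.02 and −0.11.

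The list for cell cycle, DNA repair and cell death had 22 tested genes, 8 higher and 14 lower (median −0.06; 7733 higher and 8293 lower over all tested genes), of which 4 had an unadjusted p below 0.05 (18.2%, beside 6.7% of all genes). Besides *Cul9* and *Polh* (log2 fold change −0.27 ± 0.09), these were *Pim1*, a serine/threonine kinase that promotes survival, at −0.16 ± 0.07, and *Kifc1*, a kinesin that organises spindle poles, at 0.23 ± 0.10. *Ppp2r5d* and *Csnk2b*, regulatory subunits of protein phosphatase 2A and casein kinase 2, led the list at 180 and 90.7 TPM and had 0.02 and −0.16.

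Signalling, vascular and skeletal genes, a list that also holds genes of the cytoskeleton, had 7 of 31 members at an unadjusted p below 0.05 (22.6%), 2 higher and 5 lower, beside 6.7% of all genes (3.44% higher and 3.26% lower). The lists were drawn up with earlier results of these data known. The higher genes were *Adgrf5*, an adhesion receptor of endothelium and lung epithelium, and *Itpr3*, a calcium channel gated by inositol trisphosphate. *Adgrf5* had 31.6 to 43.7 CPM (median 33.6) in M-Z+ and 36.5 to 52.1 CPM (median 41.8) in M-Z- embryos. The groups overlapped between 36.5 and 43.7 CPM. *Adgrf5* and *Itpr3* had 0.30 ± 0.11 and 0.24 ± 0.10, and with the length slope 0.20 and 0.19, the latter with an unadjusted p above 0.05. The lower genes were *Klc4*, *Rhag*, *Tjap1*, *Egfl8* and *Pacsin1*, the last an endocytic adaptor of neurons, and *Egfl8*, *Tjap1* and *Pacsin1* had −0.28, −0.21 and −0.28. For *Tjap1* it was −0.10 with the surrogate variables, where its unadjusted p was above 0.05. The most abundant gene of the list, the beta-tubulin *Tubb5*, had a mean of 1619.0 TPM and a log2 fold change of −0.17 ± 0.10, and *Ptk7*, a receptor of planar cell polarity, had 194 TPM and 0.09.

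Of the complement, TNF cluster and other class III immune genes, only 4 were tested members. *Tnxb*, which encodes the matrix protein tenascin X and shares bases with a *Cyp21a2* pseudogene, had 1.93 to 6.47 CPM (median 2.55) in M-Z+ and 3.65 to 5.98 CPM (median 5.48) in M-Z- embryos. Its highest value was that of M-Z+ replicate 3, above all M-Z- embryos, while the other 5 M-Z+ embryos were below all of them. The log2 fold change was 0.70 ± 0.27 (edgeR, adjusted p = 0.744), or 1.03 without that embryo and 0.498 with the surrogate variables. *Nfkbil1* and *Cfb*, the complement factor B gene, led this list at 25.1 and 22.1 TPM and had −0.25 and 0.04.

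Chaperones and genes of protein folding had 1 higher and 6 lower values (median −0.07), where all tested genes had 7733 higher and 8293 lower. No gene of this list had an unadjusted p below 0.05, beside 6.7% of all genes. *Hsp90ab1*, the constitutive HSP90, was the most abundant member of the whole segment at 1778.0 TPM, with a log2 fold change of −0.02 ± 0.09, and *Bag6*, which guards newly made membrane proteins, had 80.9 TPM and −0.10. The *Trim* genes and their neighbours had 2 higher and 8 lower values (median −0.05). In this list 1 higher and 1 lower gene had an unadjusted p below 0.05 (20%, beside 6.7% of all genes). The most abundant were *Trim10* at 130 TPM and *Abcf1*, a factor of translation initiation, at 108 TPM, the latter with −0.04. The 60 members in none of the lists had a median of −0.09. Of these only *A930015D03Rik*, a transcript that shares bases with *H2-T22*, *H2-T23* and *H2-T24*, had an unadjusted p below 0.05 (1.67%, beside 6.7% of all genes). Its log2 fold change was −0.44 ± 0.15.

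**Figure D2:**
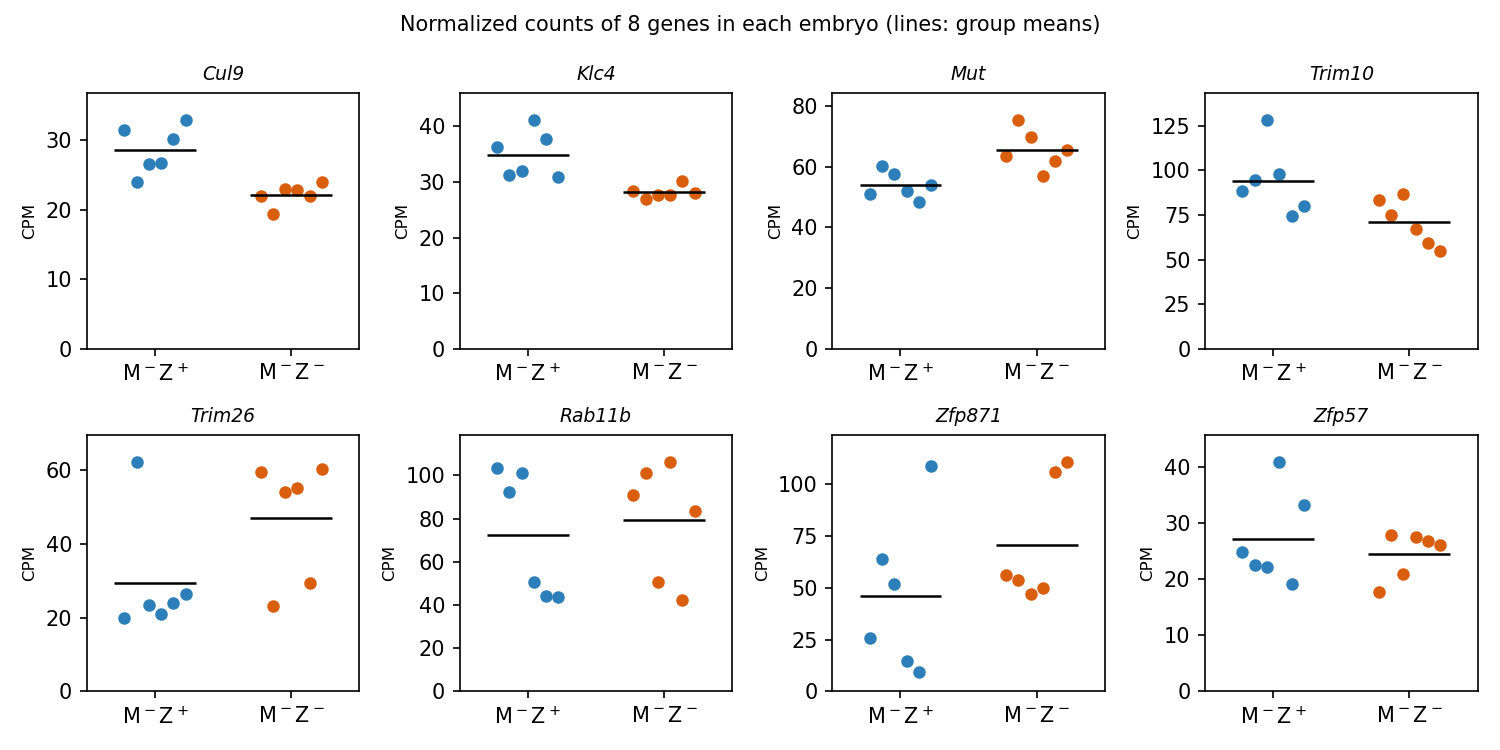
Normalized counts (CPM, vertical axis, from 0) of 8 genes in each of the 6 M-Z+ (blue) and 6 M-Z- (orange) embryos, with points in the order of the replicate numbers and the group means as lines. *Cul9* and *Klc4* show no overlap between the groups, whereas *Trim26* and *Rab11b* stand at a low and a high level in both groups.

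The spread between embryos of a group was that of genes elsewhere. The median standard deviation of log2 CPM within groups was 0.21 both over the members and over all tested genes with enough counts. The widest spread among the members was that of *Zfp871*, a zinc-finger gene at 32771236, with a standard deviation of 1.03 on the log2 scale. It ran from 9.24 to 109 CPM (median 39.0) in M-Z+ and from 47.1 to 110 CPM (median 54.8) in M-Z- embryos. The 3 embryos over 100 CPM were M-Z+ replicate 6 and M-Z- replicates 5 and 6, the libraries with the steepest length slope, and the 2 lowest, M-Z+ replicates 4 and 5, had slopes of 0.437 and 0.515. The log2 fold change of *Zfp871* was 0.62 ± 0.49 (edgeR, adjusted p = 0.759), 0.24 with the slope as a covariate and 0.17 with the surrogate variables. Without the 3 libraries of the steepest slope it was 0.64, and with a block for the replicate number it was 0.90. It was 1.09 without M-Z+ replicate 6 and 0.40 without M-Z+ replicate 5, and the part of the slope was not tested further.

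*Trim26* was not alone in having values at separate levels. As a description chosen after the values were seen, a gene was counted where the 12 embryos, ordered by log2(CPM + 0.1), were parted by a gap of at least 0.5 that made up at least 50% of their range, with at least 2 embryos on either side. The count was 3 of 226 members (1.33%), beside 0.683% of the 13473 tested genes with enough counts. *Rab11b*, a small GTPase of recycling endosomes at 33742484, had 83.7 to 106 CPM in 7 embryos (replicates 1, 2 and 3 of M-Z+ with 1, 2, 4 and 6 of M-Z-), and 42.5 to 50.8 CPM in the other 5 embryos. The levels of *Rab11b* and *Trim26*, compared after the values were seen, matched in most embryos. How often such levels of 2 genes would match by chance was not tested. M-Z+ replicate 2 and M-Z- replicates 1, 4 and 6 were high for both genes. M-Z+ replicates 4, 5 and 6 and M-Z- replicate 5 were low for both. M-Z+ replicates 1 and 3 and M-Z- replicate 2 were high for *Rab11b* only, and M-Z- replicate 3 for *Trim26* only. The log2 fold change of *Rab11b* was 0.13 ± 0.28, with 0.01 under the surrogate variables and 0.25 under the length slope. It dropped to 0.0095 when M-Z+ replicate 6 was omitted, and rose to 0.25 when replicate 1 of that group was. *Cbs*, the cystathionine beta-synthase of sulphur amino acid metabolism, had 2.33 and 2.66 CPM in M-Z- replicates 6 and 5 and at least 4.84 CPM in every other embryo. *Mapk14*, the p38 alpha kinase, spread from 30.7 to 104 CPM and from 48.9 to 112 CPM in the 2 groups without such a gap.

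The edges of the segment were set by position. The first member was *Bak1*, a pore-forming protein of apoptosis at 27019810 (log2 fold change −0.03), and the last *Ubr2*, a ubiquitin ligase at 46928292 (0.15). Just outside, *Ggnbp1* at 26973217 and *Trerf1* at 47140875 had −0.23 and 0.14. *Ggnbp1* had 27.4 to 35.1 CPM in 5 embryos (replicates 4, 5 and 6 of M-Z+ with 5 and 6 of M-Z-), and 2.66 to 4.09 CPM in the other embryos. The members nearest the count minimum were *Ier3* and *Dlk2*, with mean counts of 53.2 and 55.8, and *Tulp1* and *Msh5* just missed it with 47.7 and 47.2. *Gm20547*, a member,, was not tested by edgeR because it did not pass the filter on low counts, which left 226.

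Of the 17 genes left out by name with enough counts, none was called by edgeR with the groups alone in the model. Those with an unadjusted p below 0.05, beside 6.7% of all genes, were *H2-D1*, *H2-Q4* (log2 fold change 0.44), *Notch3* (0.22) and *H2-Ke6* (−0.315). *H2-D1*, a class I antigen-presenting gene at 35262730, had 10.1 to 20.9 CPM (median 15.4) in M-Z+ and 18.4 to 31.4 CPM (median 26.5) in M-Z- embryos, with a log2 fold change of 0.75 ± 0.17 (edgeR, adjusted p = 0.304, DESeq2 adjusted p = 0.0136). In edgeR it passed the call rule with the surrogate variables (0.81, adjusted p = 0.00189) and with the length slope (0.94, adjusted p = 0.00223). It was named after its values were seen, and its groups overlapped at M-Z+ replicate 3.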

How the data were processed

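The measurements were mRNA-Seq libraries of 6 M-Z+ and 6 M-Z- embryos. Genotype and replicate number were taken from the sample labels. Whole-genome bisulfite libraries of the series are not analysed here. In the table the authors deposited, each of 34745 genes has a raw count and an FPKM value per library. The FPKM values were computed by the authors from these counts, since 100% of those above 0.01 came back from the counts within 0.1%, and they served here to recover each gene's length for TPM. The submitters' processing notes name HISAT2 2.0.4 and Trim Galore 0.4.1. For this table the notes do not name the counting program, its use of strand or the annotation. The methods of the paper name STAR, featureCounts with its reverse-strand option and mm9 for RNA-Seq of sexed embryos, which is another aligner and build than those of this table: 9 of 218 members matched to an NCBIM37 (mm9) annotation overlap their entry there. Positions follow GRCm38, since all 217 members found in the RefSeq table of GRCm38.p6 overlap their entry. Of the members, 92 share bases with another gene, and reads could have been divided between such genes. A number of gene symbols (27) had been turned into dates, 1 of them a member.

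Counts were tested with edgeR 4.0.16 in R 4.3.3 (TMM, filterByExpr, glmQLFit and glmQLFTest) across 16026 genes, with Benjamini-Hochberg adjustment over all of them. Standard errors were obtained as |log2 fold change| / √F, with F from the quasi-likelihood test. Exact permutation tests compared group means of CPM, or of summed TPM for markers, over every way to split the 12 libraries 6 against 6, two-sided. Summaries and figures were made with Python 3.11.15, SciPy 1.17.1 and matplotlib 3.10.9. The pipeline was tested on simulated data. The call rule found 77 of 99 genes simulated with a log2 change of 1 and 94 of 94 with a log2 change of 2. It also called 8 of 15686 genes simulated without a change. Changes as small as those of the members were not simulated, so the share of them that would be called is not known. Total counts ranged from 12005145 to 19216288 per library. Counts from PCR-amplified libraries are not independent molecules.

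Genes were named by this rule: *Zfp57*; the members with the lowest p in each direction, up to 10, among those at an unadjusted p below 0.05 and past the fold limit; any called member; the 5 members nearest to *Zfp57* on each side; the 2 members of highest mean TPM in each of 9 role lists; and the genes on either side of each threshold. Other genes with an unadjusted p below 0.05, *Rab11b*, *Cbs*, *Zfp871*, *Mapk14*, *Atp6v1g2*, *H2-D1*, *H2-Q4*, *Notch3* and *H2-Ke6* were picked once their values had been seen. Outside this rule, *Gtpbp2*, *Xpo5*, *Yipf3*, *Dnph1*, *Srf* and *Cul7* were named as neighbours of genes in the stretch farthest from *Zfp57*. *Rpp21* was named as a member within 1 Mb. Members and lists were chosen with earlier results of these data known. Of the members, 166 fell in a role list. Alternatives tried were DESeq2 1.42.0, RLE size factors, no filter, a mean of 50 counts for every gene, 2 surrogate variables (sva 3.50.0), a block for the replicate number, the length slope of each library, each embryo left out, and other windows and count minimums. Nothing in the labels says whether embryos shared a litter, so p-values measure the spread between these embryos.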

Additional observations from a re-analysis of the deposited data

Results flagged for a closer look

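In 138 groups of 6 embryos, those of each marker list and of each named gene followed through the alternatives, 6 held a value set far apart from the rest, and chance alone gives about 1 in 20. M-Z+ replicate 3 had 6.47 CPM of *Tnxb*, against at most 2.93 CPM in the other M-Z+ embryos. M-Z+ replicate 2 had 62.0 CPM of *Trim26*, where the next M-Z+ embryo had 26.5 CPM. M-Z+ replicate 4 had 76.3 CPM of *Gm26917* and 78.6 CPM of *Pim1*, above 49.6 and 69.2 CPM in the embryos next to it. M-Z- replicate 6 had 52.9 CPM of *Gm42418*, below 73.7 CPM in the next embryo. The trophoblast markers summed to 0.321 TPM in M-Z+ replicate 2 and to 0 in the other M-Z+ embryos, while M-Z- replicates 1 and 5 had 0.338 and 0.166 TPM.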

How the results depend on the processing

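The number of members called stayed at 0 in every alternative: DESeq2, RLE size factors, no filter, a mean of 50 counts, the replicate block, surrogate variables, the length slope, each embryo left out, no fold limit, and each other window, count minimum or list of names. No fit called *Zfp57*, and its log2 fold change kept its sign except without M-Z+ replicate 4 (lowest −0.24, highest 0.0042 when single embryos were left out). The median log2 fold change of the members was 0.005 with the surrogate variables, −0.005 with the length slope and negative in the other alternatives. It lay between −0.09 and −0.04 when single embryos were left out.

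The number at the unadjusted p with the fold limit, 4, was 2 with the replicate block and 2 with the length slope. It was 1 with the surrogate variables and 1 without the 3 libraries of the steepest length slope, an alternative chosen after seeing the data. It was 22 with no fold limit and from 2 to 5 with each embryo left out. The lowest, 2, came when the embryo left out was M-Z+ 1, M-Z+ 5 or M-Z- 6. The gene counted with the surrogate variables was *Atp6v1g2*, a subunit of the vacuolar proton pump, at −0.64, which had −0.41 without them. With no fold limit, 30 members had an unadjusted p below 0.05 with the surrogate variables, 15 higher and 15 lower, and 14 of them were among the 22. With the length slope they were 30, 11 higher and 19 lower, 16 of them among the 22. The shares over all genes were 10.3% and 9.82%. Of the 22, *Rps28*, *Tjap1*, *Itpr3*, *Uqcc2*, *Egfl8* and *Trim26* were not counted in either, nor *Tnxb* and *Pim1* with the surrogate variables. Without M-Z+ replicate 6 they were 42, beside 16.2% of all genes.

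The number without overlap between the groups, 2, was 1 (*Klc4*) with the size factors of DESeq2 (all genes 0.364%) and 1 with RLE (0.512%), since the nearest values of *Cul9* then changed order. It was 0 in a window of 5 Mb, which leaves out *Cul9* and *Klc4* by position. It was 7 without the 3 libraries of the steepest slope (3.1%, beside 2.95% of all genes), and from 2 to 6 with each embryo left out, where fewer embryos have to be separated and the share of all genes was 0.627% to 1.71%. Leaving out M-Z+ 2 gave 6 (all genes 0.775%), M-Z- 5 gave 5 (0.79%), M-Z+ 6 gave 4 (1.71%) and M-Z- 4 gave 4 (0.842%). It has no value in the fits with a block, surrogate variables or the length slope. The other causes of these differences were not tested. The correlation of the absolute change with distance moved by less than its leave-one-out error with DESeq2, the length slope and the surrogate variables, which were added after seeing the data, as was the division of the nearest class at 1 Mb. The median absolute log2 fold change of the 8 members within 1 Mb was above that of the 32 at 1 to 2 Mb in every fit.

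The labels give both groups the replicate numbers 1 to 6. Same-numbered embryos correlated between 0.02 and 0.64 in their deviations from the group means, and 3 of 6 correlated best with their own number. As the labels name no shared litter and not every correlation was above 0.1, the number was not taken as a pairing. With the replicate block 0 members were called, 2 were counted at the unadjusted p with the fold limit, and 28 members had an unadjusted p below 0.05, 20 of them among the 22, beside 13.2% of all genes.

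Named genes were followed through the alternatives, except *Gtpbp2*, *Xpo5*, *Yipf3*, *Dnph1*, *Srf*, *Cul7*, *Rpp21*, *H2-Q4*, *Notch3* and *H2-Ke6*. Of the 60 named genes followed, other than *Zfp57*, 4 results moved past the call rule and all were of *H2-D1*. These were with DESeq2 (0.75), the block (0.76, edgeR adjusted p = 0.0155), the surrogate variables (0.81) and the length slope (0.94). The sign changed for 21 genes with log2 fold changes from −0.23 to 0.15, none of them called. With the surrogate variables the value was 0.068 for *Znrd1*, 0.15 for *Gm26917*, 0.11 for *Rpl7l1*, 0.027 for *Csnk2b*, 0.075 for *Hsp90ab1*, 0.077 for *Ddah2*, 0.10 for *Bak1* and 0.20 for *Ggnbp1*. With the length slope it was 0.11 for *Znrd1*, 0.19 for *Gm26917*, 0.046 for *Rpl10a*, 0.10 for *Rpl7l1*, 0.023 for *Csnk2b*, 0.079 for *Hsp90ab1*, 0.061 for *Ddah2*, 0.024 for *Abcf1*, 0.14 for *Bak1*, −0.03 for *Ubr2*, −0.0093 for *Trerf1* and 0.094 for *Ier3*. With each embryo left out, the range was −0.14 to 0.018 for *Znrd1*, −0.088 to 0.023 for *Gabbr1*, −0.14 to 0.18 for *Gm26917*, −0.0032 to 0.045 for *Cdc5l*, −0.0038 to 0.10 for *Prrc2a*, −0.072 to 0.016 for *Hnrnpm*, −0.13 to 0.014 for *Rpl7l1*, −0.036 to 0.077 for *Ppp2r5d*, −0.043 to 0.11 for *Cfb*, −0.073 to 0.018 for *Hsp90ab1*, −0.0003 to 0.14 for *Clic1*, −0.12 to 0.019 for *Bak1*, −0.79 to 0.012 for *Ggnbp1*, −0.24 to 0.0018 for *Ier3* and −0.09 to 0.27 for *Mapk14*. The cause was not tested. Depth limits the genes near 50 counts most, such as *Tnxb*, *Ier3* and *Dlk2*.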
